A study of Homo sapiens with 6 samples.

Results

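Base excision repair was read from 10 genes of U87 cells, an established human glioblastoma line, with and without silencing of Caspase-8. The 10 genes, OGG1, MUTYH, NTHL1, NEIL1, UNG, MPG, APEX1, POLB, XRCC1 and LIG3, were taken by symbol from a table of 23290 genes, and all 10 were found. RNA came from 3 control cultures (shCTR) that received a scramble retrovirus and 3 cultures (shC8) that received a retrovirus to silence Caspase-8, all grown in DMEM with serum, and no untreated cells were analysed here. Both groups therefore carry a vector, and the sources used here do not give the number or sequence of the hairpins. The submitters call the 3 samples of a group biological replicates, without saying how cultures or infections were kept apart, so a p-value reflects only how these samples vary, which may be technical. The title of the series speaks of therapy resistance, angiogenesis, SRC and NF-kB signalling, and no label addresses base excision repair itself.

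Base excision repair removes small damaged bases, such as those made by oxidation, deamination or alkylation, from 1 strand of DNA. A glycosylase cuts out the damaged base, the endonuclease encoded by APEX1 nicks the backbone at the empty site, DNA polymerase beta (POLB) fills the gap, and the ligase LIG3 seals it while bound to the scaffold protein XRCC1. A longer route uses the replication polymerases, the flap nuclease FEN1 and the ligase LIG1. In glioma, the pathway is known for removing most of the bases methylated by alkylating drugs such as temozolomide.

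Values are FPKM, by definition fragments scaled by transcript length and by the mapped fragments of the library. The scaling actually used was not stated. Levels are compared between genes on this scale, and the part of exons shared with opposite-strand genes, given below, was not tested. Columns summed to between 489055 and 516634 FPKM. The absolute depth is unknown, and the ratio most common among genes below 0.05 FPKM put shCTR 2, shCTR 3, shC8 1 and shC8 2 at 1.1 to 1.2 times the depth of shCTR 1. That ratio rested on 13 to 23 genes of 756 to 821 in a library, and for shC8 3 it was not stable, at 1.14 when sought within 0.5 of equal depth on the log2 scale and 0.588 when sought within 1. The silenced gene CASP8 was at 15.1, 14.9 and 13.4 FPKM in the shCTR libraries 1, 2 and 3 and at 4.39, 4.46 and 4.44 FPKM in the shC8 libraries 1, 2 and 3, so each library matched its label (exact two-sided permutation p = 0.1, the smallest that 3 against 3 allows). Of the markers of a glioma line, VIM, CD44, NES, S100A10 and CHI3L1 were expressed, while GFAP, SOX2 and OLIG2 stayed at or below 0.511 FPKM in each library. Among these line markers CD44 fell by 0.45 (limma adjusted p = 0.0131, called in 6 of 6 fits without 1 library) and NES rose by 0.60 (adjusted p = 0.0293, called in 2 of 6), and with the replicate number as a block S100A10 and CHI3L1 passed too, both higher (adjusted p = 0.0399 and 0.0263). Their part in the results below was not tested. The immune markers CD3E and MS4A1 were listed at 0 throughout, and the summed endothelial and epithelial lists reached at most 1.1 and 2.1 FPKM. CD68, on the immune list, was at 135 to 157 FPKM, and its part in the results was not tested. On the neuron list TUBB3 was at 68 to 96.4 FPKM, SNAP25 at 14 to 18.8 FPKM and SYT1 at 1.95 to 2.97 FPKM. These genes were tested and not called, though SYT1 passed with the replicate block (0.31, limma adjusted p = 0.0418). RBFOX3 stayed at or below 0.204 FPKM, and the part of the neuron list in the results was not tested. Each deposited column name ends in a long number. These numbers form a lower range, for shC8 1 and both shCTR 1 and 3, and an upper range, for shCTR 2 and both shC8 2 and 3. What they mean was not stated.

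Lower RNA of OGG1 and, less firmly, of XRCC1 was seen in shC8, and the other 7 tested genes did not pass the test. Differences are on the log2(FPKM + 1) scale, shC8 minus shCTR, and were called with limma at a Benjamini-Hochberg adjusted p under 0.05 over the 11598 genes that averaged 1 FPKM or more. NEIL1 did not reach that mean, so 9 of the 10 genes were tested. Of these 9, 2 were called lower and 0 higher, and the same number had an unadjusted p under 0.05 (29.7% of all tested genes had). Among all tested genes 12.1% were called, 7.14% higher and 4.94% lower, so with 9 genes the count gives no measure of the pathway as a whole. The balance of those calls over all genes turned with the scaling, from 828 higher and 573 lower to 621 and 820 with median-of-ratios scaling and 715 and 731 with quantile normalization. In bulk RNA, fewer cells that express a gene and less RNA per cell cannot be told apart. The median change of the 9 genes was -0.15, beside 0.0376 for all tested genes.

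**Figure D1:**
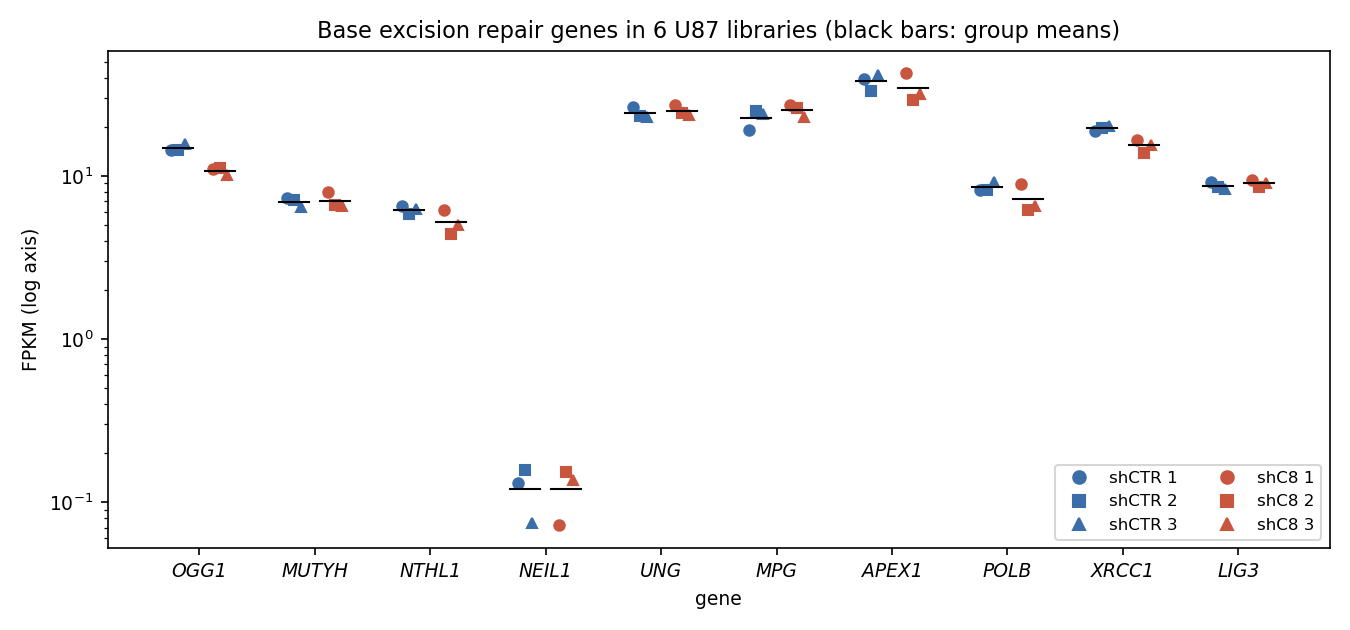
FPKM (log axis) of each of the 10 genes in each library, shCTR in blue and shC8 in red, with the marker shape giving the replicate number and black bars the group means. The groups lie apart for OGG1 and XRCC1, and NEIL1 stays between 0.0723 and 0.157 FPKM.

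OGG1 and, less firmly, XRCC1 are the 2 genes of the set called lower in the main fit, so their promoters are shown. Each is the 250 bases before the RefSeq start (build GRCh38.p14), 5′ to 3′ on the gene's strand. Capitals mark matches on either strand to the GC box, GGGCGG, or to the letters CCAAT. The OGG1 sequence is chr3:9749702-9749951 on the plus strand and the XRCC1 sequence is chr19:43575528-43575777 on the minus strand.
OGG1: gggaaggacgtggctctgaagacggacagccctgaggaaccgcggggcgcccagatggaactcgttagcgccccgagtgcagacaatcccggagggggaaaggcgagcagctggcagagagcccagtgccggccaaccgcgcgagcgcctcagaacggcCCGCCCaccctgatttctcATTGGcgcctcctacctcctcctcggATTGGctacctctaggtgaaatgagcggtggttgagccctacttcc
XRCC1: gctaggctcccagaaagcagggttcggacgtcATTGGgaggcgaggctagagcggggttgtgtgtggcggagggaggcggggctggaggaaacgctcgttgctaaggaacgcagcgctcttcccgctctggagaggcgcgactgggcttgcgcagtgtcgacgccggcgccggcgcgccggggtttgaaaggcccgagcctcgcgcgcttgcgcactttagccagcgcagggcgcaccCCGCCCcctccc
Both windows hold 1 GC box match, and OGG1 holds 2 CCAAT matches against 1 for XRCC1. These are common letters: GGGCGG was found in 63.6% and CCAAT in 33.4% of 12244 windows of tested genes. Over the 9 genes with an entry, 8 had a GC box match and 7 a CCAAT match in at least 1 window, so the matches did not set OGG1 and XRCC1 apart. These counts are per gene, with 2 windows for UNG and 3 each for MUTYH and NEIL1. They cannot be compared with the shares per window. ETS-type letters (ACTTCCG or CCGGAAG) lay upstream of NTHL1, MUTYH and LIG3, and no member window held the NRF1 motif or the E2F-type letters TTTCGCGC or TTTGGCGC. The GC content was 64.8% for OGG1 and 70.0% for XRCC1. POLB had no entry.

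OGG1 encodes the glycosylase that removes oxidised guanine from DNA (ENSG00000114026, chromosome 3, 9749944 to 9788219, plus strand, GRCh38). Its RNA was at 14.5, 14.5 and 15.8 FPKM in the shCTR libraries 1, 2 and 3 and at 11.0, 11.2 and 10.1 FPKM in the shC8 libraries 1, 2 and 3. Each shC8 library was below each shCTR library, a pattern that 34.8% of tested genes showed in 1 direction or the other and 13.1% in this direction. The group means were 14.9 ± 0.71 and 10.7 ± 0.607 FPKM (SD, n = 3 each), or 72.0% of control. On the log2 scale OGG1 fell by 0.44 (SE 0.0699, 95% interval -0.60 to -0.28, limma adjusted p = 0.0107). Compared inside each range of column numbers, the change was -0.42 in the lower and -0.42 in the upper. The only shC8 library of the lower range is shC8 1, and the only shCTR library of the upper is shCTR 2. This limit holds for every such comparison below. The call of OGG1 held in each of the 6 fits that left out 1 library (limma adjusted p 0.0214 to 0.0462).

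The gene CAMK1, for a calcium- and calmodulin-dependent kinase, lies on the opposite strand, and in GENCODE 29 its exons cover 2180 of the 8733 exon bases of OGG1 (25.0%), touching 9 of 12 coding transcript models. CAMK1 moved the other way: 11.3, 10.3 and 9.31 FPKM in shCTR against 15.8, 13.8 and 12.6 FPKM in shC8, a rise of 0.41 (SE 0.10, limma adjusted p = 0.0386). The call of CAMK1 was lost in each of the 6 fits without 1 library (adjusted p 0.0582 to 0.103). The libraries were stranded per the labels, but use of strand in counting was not stated, and without it reads of the shared exons cannot be told apart, so the part of this overlap in the OGG1 value was not tested. CAMK1 was picked out after its values were seen.

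**Figure D2:**
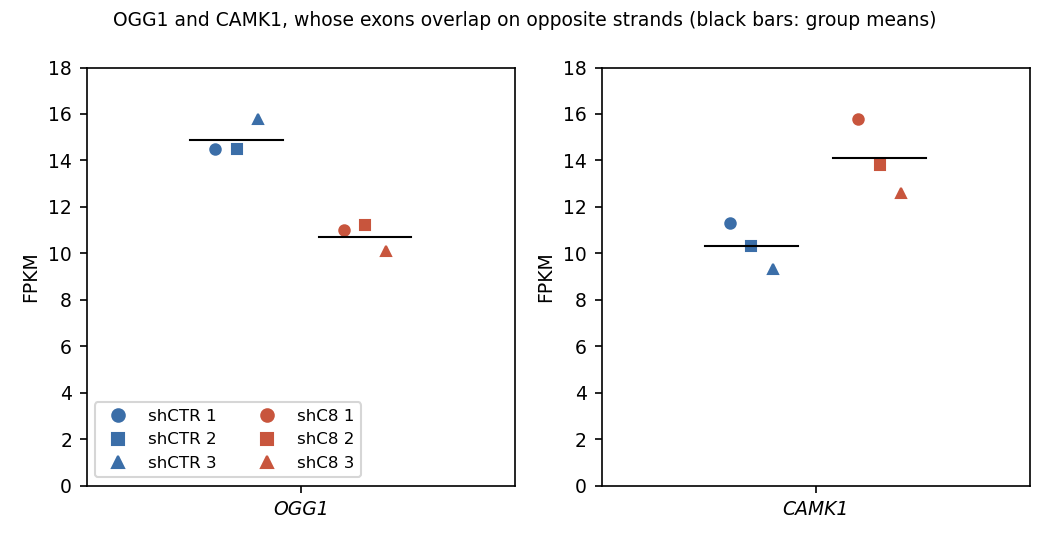
FPKM of OGG1 (left) and CAMK1 (right) in each library, shCTR in blue and shC8 in red, with black bars for the group means and axes that start at 0. OGG1 lies between 10.1 and 11.2 FPKM in shC8 and between 14.5 and 15.8 in shCTR, while CAMK1 lies above all its shCTR values in shC8.

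MUTYH encodes the glycosylase that removes adenine paired with oxidised guanine, acting on the same lesion as OGG1 after replication (ENSG00000132781, chromosome 1, 45329163 to 45340470, minus strand). It was at 7.32, 7.09 and 6.49 FPKM in the shCTR libraries and at 8.01, 6.64 and 6.53 FPKM in the shC8 libraries. These groups overlapped, and the change was 0.01 (95% interval -0.20 to 0.23, limma adjusted p = 0.942), with a sign that turned under both other scalings. The interval of MUTYH does not reach the -0.44 of OGG1.

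NTHL1, which encodes a glycosylase for oxidised pyrimidines (ENSG00000065057, chromosome 16, 2039815 to 2047866, minus strand), was at 6.54, 5.81 and 6.24 FPKM in shCTR. In shC8 it was at 6.19, 4.39 and 5.00 FPKM, so that shC8 1 lay inside the control range and the other 2 libraries below it. The change was -0.23 (95% interval -0.49 to 0.04, limma adjusted p = 0.23). Pairs of libraries with the same number differed by -0.07, -0.34 and -0.27.

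NEIL1, another glycosylase gene for oxidised bases (ENSG00000140398, chromosome 15, 75346955 to 75357114, plus strand), was near the bottom of the scale. It was at 0.132, 0.157 and 0.0743 FPKM in the shCTR libraries and at 0.0723, 0.154 and 0.137 FPKM in the shC8 libraries, with means of 0.121 ± 0.0423 and 0.121 ± 0.043 FPKM (SD, n = 3 each). At this level a difference was not detectable. Its relatives NEIL2 and NEIL3 were expressed at 15.9 and 32.1 FPKM in shCTR and 13.3 and 29.2 FPKM in shC8, with changes of -0.25 and -0.13 that did not pass (limma adjusted p = 0.0938 and 0.208).

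UNG encodes the glycosylase that removes uracil from DNA, with a mitochondrial and a nuclear form made from different starts (ENSG00000076248, chromosome 12, 109097574 to 109110992, plus strand). The table gives 1 value per gene, so the forms were not separated. UNG was at 26.5, 23.3 and 23.1 FPKM in the shCTR libraries and at 27.4, 24.3 and 23.6 FPKM in the shC8 libraries. The spread within a group exceeded the difference between them, 0.04 on the log2 scale (95% interval -0.15 to 0.24, limma adjusted p = 0.768), and the sign turned with median-of-ratios scaling.

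MPG encodes the glycosylase that removes alkylated purines (ENSG00000103152, chromosome 16, 77007 to 85853, plus strand). Its values were 19.1, 25.2 and 23.9 FPKM in shCTR and 27.4, 26.2 and 22.9 FPKM in shC8. The lowest library was shCTR 1 and the highest shC8 1, both in the lower range of column numbers. The difference for MPG was 0.34 within the lower range, -0.04 within the upper range and 0.16 over all libraries (95% interval -0.10 to 0.43, limma adjusted p = 0.372).

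APEX1, the gene of the main endonuclease at sites without a base, had the highest mean of the 10 genes in both groups (ENSG00000100823, chromosome 14, 20455191 to 20457772, plus strand). It was at 39.5, 33.0 and 41.6 FPKM in the shCTR libraries and at 42.6, 29.1 and 31.8 FPKM in the shC8 libraries. The change was -0.15 (95% interval -0.49 to 0.20, limma adjusted p = 0.54), and shC8 1 was the highest library of all. APEX1 separated by the range of column numbers rather than by group: the lower range held 39.5 to 42.6 FPKM and the upper range 29.1 to 33.0 FPKM. With the group in the model, upper minus lower was -0.38 for APEX1 (SE 0.074, limma adjusted p = 0.334).

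NTHL1 also lay lower in each library of the upper range than in each of the lower range, with a term of -0.23 (limma adjusted p = 0.396). POLB, which encodes the gap-filling polymerase, had a term of -0.25 (limma adjusted p = 0.404) and nearly separated. Of all tested genes 8.39% lay wholly lower in the upper range, 14.0% were apart in either direction, and 0 (0%) were called for the range at an adjusted p under 0.05, against 1414 (12.2%) at an unadjusted p under 0.05. The upper range holds 2 of the 3 shC8 libraries and the lower range 1. With the range as a term, the group difference was -0.02 for APEX1, -0.15 for NTHL1 and -0.14 for POLB.

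**Figure D3:**
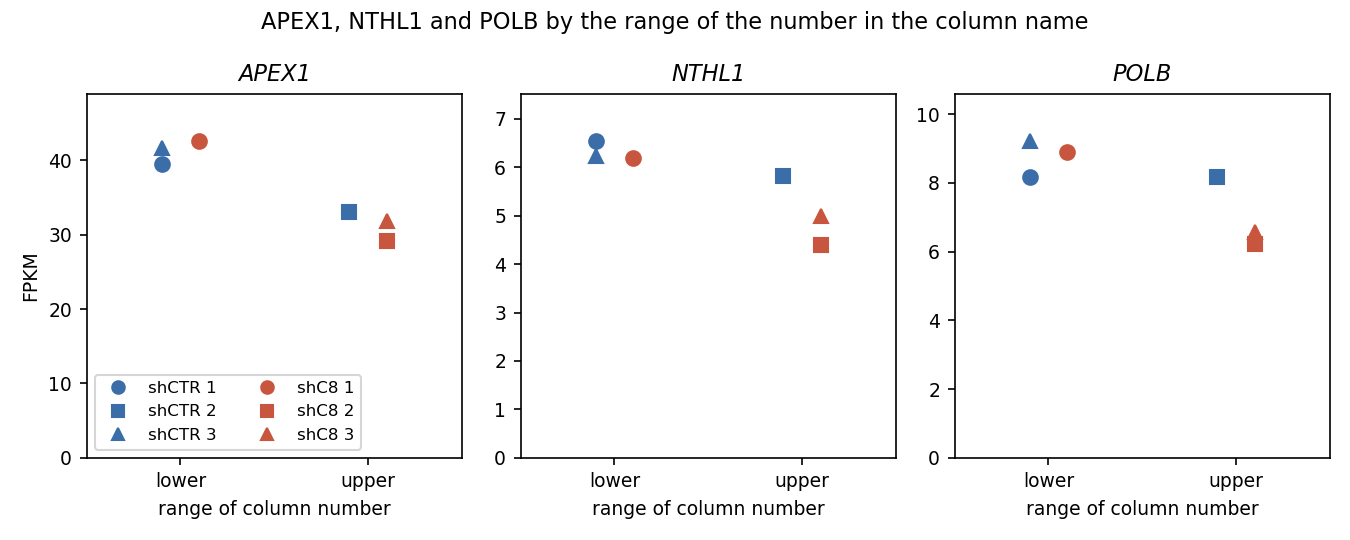
FPKM of APEX1, NTHL1 and POLB in each library (axes start at 0), split by the range of the number in the column name, shCTR in blue and shC8 in red. All 3 upper-range libraries of APEX1 lie between 29.1 and 33.0 FPKM, below the 39.5 to 42.6 FPKM of the lower range.

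For POLB (ENSG00000070501) the values were 8.16, 8.16 and 9.22 FPKM in shCTR and 8.91, 6.23 and 6.58 FPKM in shC8. The library shC8 1 lay among the controls and the other 2 lay below them. The difference for POLB was -0.22 (95% interval -0.51 to 0.07, limma adjusted p = 0.286), and -0.36 without shC8 1 (limma adjusted p = 0.0449). Within the lower range the change was 0.03 and within the upper range -0.31.

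XRCC1 encodes the scaffold that holds POLB, LIG3 and the end-processing enzymes at a nick (ENSG00000073050, chromosome 19, 43543040 to 43580473, minus strand). Its values were 18.9, 19.8 and 20.2 FPKM in shCTR and 16.7, 13.9 and 15.6 FPKM in shC8. Every shC8 library was below every shCTR library. Group means were 19.6 ± 0.654 and 15.4 ± 1.37 FPKM (SD, n = 3 each), 78.3% of the control level, and XRCC1 fell by 0.34 on the log2 scale (SE 0.0775, 95% interval -0.52 to -0.16, limma adjusted p = 0.034). The call was lost when any 1 library except shC8 1 was left out (limma adjusted p from 0.0737 to 0.0974) and with the range of column numbers as a term (-0.31, limma adjusted p = 0.0546), while the change stayed between -0.39 and -0.27 in the 6 fits that left out a library. Within the lower range it was -0.22 and within the upper range -0.40.

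LIG3, the gene of the ligase bound to XRCC1 (ENSG00000005156, chromosome 17, 34980494 to 35009743, plus strand), was at 9.21, 8.52 and 8.37 FPKM in the shCTR libraries and at 9.47, 8.54 and 9.11 FPKM in the shC8 libraries. The groups overlapped, and the change was 0.05 (95% interval -0.12 to 0.22, limma adjusted p = 0.677). Exons of RFFL on the opposite strand cover 29.1% of the LIG3 exon bases and touch 1 of 5 coding transcript models. RFFL itself differed by 0.04 (limma adjusted p = 0.77). Opposite-strand exons also cover part of other members. NPRL3 covers 27.3% of the exon bases of MPG and MAN2C1 26.4% of those of NEIL1. TSC2 covers 16.5% of NTHL1, TOE1 14.1% of MUTYH and TADA3 4.08% of OGG1. The part of these overlaps in the values was not tested.

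Set against its partner within each library, LIG3 stood at 0.487, 0.431 and 0.414 times the XRCC1 level in shCTR and at 0.569, 0.614 and 0.586 times in shC8. The ratio was higher in each shC8 library, by 0.41 on a log2 scale (exact two-sided permutation p = 0.1, the smallest possible, and 0.4 adjusted over 4 ratios). On the log2(FPKM + 1) scale LIG3 itself differed by 0.05 and XRCC1 by -0.34. This ratio therefore largely restates the XRCC1 values and is not a separate result. The ratio of POLB to XRCC1 overlapped between groups, with 0.413 to 0.457 in shCTR and 0.423 to 0.535 in shC8 (exact permutation p = 0.5). LIG3 to LIG1, the ligases of the short and long routes, was 1.58 to 1.96 in shCTR and 1.6 to 1.88 in shC8 (exact permutation p = 0.9). APEX1 to PARP1, the enzyme that senses nicks, was 0.572 to 0.675 in shCTR and 0.456 to 0.594 in shC8 (exact permutation p = 0.2).

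**Figure D4:**
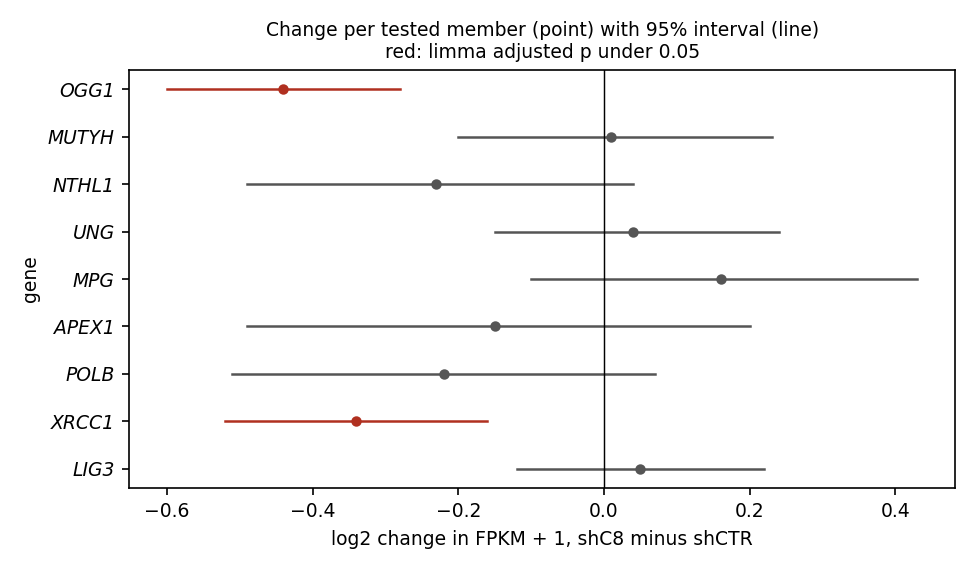
Change in log2(FPKM + 1), shC8 minus shCTR, for the 9 tested genes (points) with the 95% interval from limma (lines), red where the adjusted p was under 0.05. OGG1 at -0.44 and XRCC1 at -0.34 are red, and the intervals of the other 7 genes include 0.

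By level in shCTR, APEX1 (38.0 FPKM) came first, then UNG (24.3), MPG (22.7), XRCC1 (19.6), OGG1 (14.9), LIG3 (8.70), POLB (8.51), MUTYH (6.97), NTHL1 (6.19) and NEIL1 (0.121). Library values overlapped between UNG and MPG, MPG and XRCC1, LIG3 and POLB, and MUTYH and NTHL1, and the other neighbours in this order did not overlap. In shC8 the means of OGG1 and LIG3 stood at 10.7 and 9.04 FPKM, still without overlap between the 3 libraries of each. The median mean level of tested genes was 12.3 FPKM.

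By likeness over the 6 libraries, the genes closest to OGG1 were SMAD2, CEP170 and PDE7A (Pearson r = 0.9947, 0.9930 and 0.9921 of log2(FPKM + 1)), and those closest to XRCC1 were BEX1, ODC1 and PIGW (0.9989, 0.9948 and 0.9933). All points share the same 6 libraries and the group difference, and 176 and 133 genes exceeded a correlation of 0.95 with OGG1 and XRCC1, so these names are descriptions.

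Of the 10 genes, 3 had a start within 1000 bases of the start of a gene on the opposite strand. NTHL1 starts 151 bases from TSC2, the tuberous sclerosis gene, which was at 8.62, 8.18 and 9.29 FPKM in shCTR and 9.43, 9.62 and 9.85 FPKM in shC8. The value of TSC2 was 0.13 (limma adjusted p = 0.24), beside -0.23 for NTHL1, and neither passed. TOE1, 50 bases from MUTYH, had a difference of -0.06 (limma adjusted p = 0.663), and OSGEP, 414 bases from APEX1, one of 0.02 (limma adjusted p = 0.909). OSGEP overlapped between the ranges of column numbers, unlike APEX1, with a range term of -0.14 (limma adjusted p = 0.482).

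Outside the 10 genes, the glycosylase gene TDG rose, and called changes among the other pathway genes went both ways. Of 38 further genes of base excision repair, all tested, 2 rose and 2 fell (10.5%, beside 12.1% of all genes), with a median change of 0.03. With the replicate number as a block 4 rose and 3 fell, where 26.6% of all genes were called. TDG, which encodes the glycosylase for mismatched thymine and for oxidised forms of methylcytosine, was at 9.95, 9.05 and 9.54 FPKM in the shCTR libraries and at 14.7, 13.9 and 17.0 FPKM in the shC8 libraries. The groups did not overlap, and TDG was at 160% of its control level, a rise of 0.62 (SE 0.0863, limma adjusted p = 0.00692) that kept its call in 6 of 6 fits without 1 library. GENCODE 29 names 1 pseudogene each for TDG and RFC3 and 2 for UNG, which could share their reads.

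The other rise was POLD4, the smallest subunit of DNA polymerase delta, from 14.3 ± 0.894 to 18.6 ± 0.887 FPKM (SD, n = 3 each), by 0.35 (limma adjusted p = 0.022). RFC4 and RFC3, subunits of the loader that places the PCNA ring on DNA, fell by 0.36 and 0.25 (limma adjusted p = 0.0282 and 0.0341). RFC4 was at 98.4 to 104 FPKM in shCTR and at 73.8 to 86.9 FPKM in shC8. Of the 6 fits without 1 library, POLD4 kept its call in 2, RFC4 in 1 and RFC3 in 0. The loader subunits RFC1, RFC2 and RFC5 did not pass, with changes of 0.14, -0.01 and 0.04.

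Among uncalled genes of high level, the log2 difference was -0.27 for the polymerase epsilon subunit gene POLE3 (limma adjusted p = 0.0569), -0.13 for PCNA (adjusted p = 0.221), 0.03 for the chromatin protein gene HMGB1 (adjusted p = 0.821) and 0.19 for PARP1 (adjusted p = 0.108). With the replicate block POLE3, PARP1 and the endonuclease gene APEX2 passed (limma adjusted p = 0.0118, 0.0404 and 0.0296). The long-route genes FEN1 and LIG1 had changes of 0.08 and 0.03, with 95% intervals of -0.07 to 0.23 and -0.15 to 0.20.

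**Figure D5:**
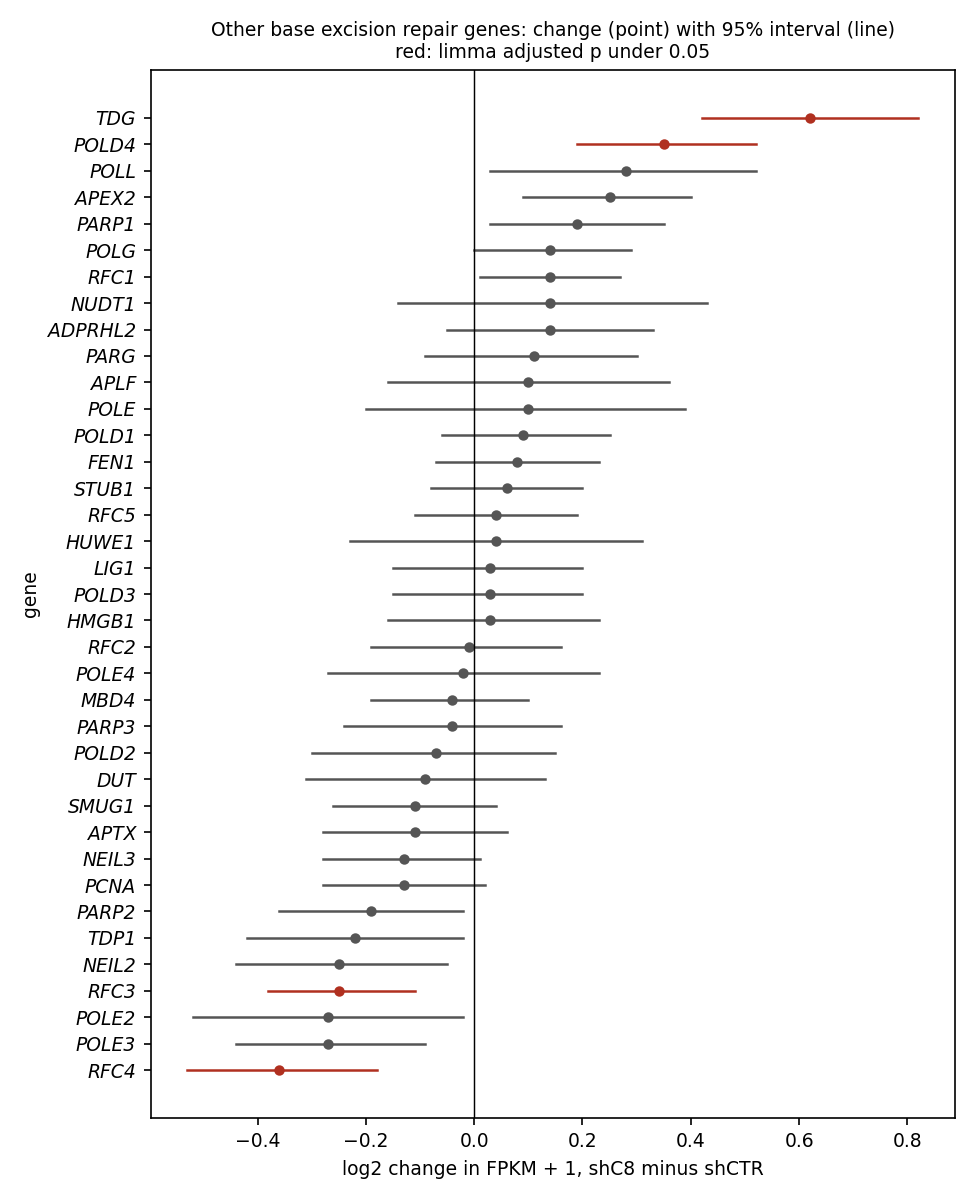
Change in log2(FPKM + 1), shC8 minus shCTR, for 37 of the 38 other base excision repair genes (points) with the 95% interval from limma (lines), ordered by size and red where the adjusted p was under 0.05. TDG at 0.62 and POLD4 at 0.35 are red on the right, and RFC3 at -0.25 and RFC4 at -0.36 are red on the left.

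For comparison, the called genes of other repair routes were counted. Of 19 tested nucleotide excision repair genes 1 fell (5.26%, ERCC8, by 0.41), with a median of -0.09. Of 24 double-strand break repair genes 1 fell (4.17%, RBBP8, by 0.44), with a median of -0.10. Among all tested genes 4.94% were called lower, near these shares, and 12.1% in either direction. ERCC8 kept its call in 1 and RBBP8 in 4 of the 6 fits without 1 library. With the replicate block a further nucleotide excision repair gene passed, DDB2, which encodes a sensor of ultraviolet damage (-0.19, limma adjusted p = 0.0381, against 0.113 without the block). Of 11 mismatch and alkyl repair genes limma called 0, with 3 at an unadjusted p under 0.05 and 1 fall with the replicate block. For 16 S phase markers limma called 0, with 0 at an unadjusted p under 0.05 and a median of -0.07, and with the block 1 rose. Over all tested genes 29.7% had an unadjusted p under 0.05, and 26.6% were called with the block. Summed S phase markers lay at 789 to 860 FPKM in shCTR and 784 to 806 FPKM in shC8, and their part in the changes above was not tested.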

How the data were processed

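The authors deposited 1 table of FPKM per gene symbol and library, for 3 shCTR and 3 shC8 samples. Per the labels' protocols, ribosomal RNA was removed from DNase-treated total RNA before stranded library construction. The submitters' processing notes name TopHat, Cufflinks, Cuffdiff and hg38, with no version or role. Annotation, strand setting and scaling are not given in the sources used here. As FPKM holds no counts, no count model or counting interval was used.

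Genes averaging 1 FPKM or more were compared as log2(FPKM + 1) in limma 3.58.1 (R 4.3.3), moderated with a mean trend, two-sided. Changes on this scale understate those of low genes. SDs and ratios were computed in Python 3.11.15. Coordinates came from GENCODE 29 (GRCh38, the assembly called hg38) and promoters from RefSeq (GRCh38.p14), with 9 of 10 genes matched by symbol. A gene of the wider list and a marker are not reported here. The symbol UVSSA was matched through an older name.

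The 10 genes, the lists and the alternatives were chosen with earlier results of these data known. Named genes are the 10 genes, CASP8, the called and the 4 highest uncalled genes of the wider list, opposite-strand genes with a nearby start, up to 2 called genes of each other list, and the 3 genes most like each called member. CAMK1, RFFL, NPRL3, MAN2C1, TADA3, NEIL2, NEIL3, APEX2, FEN1, LIG1, RFC1, RFC2, RFC5, DDB2 and the markers named were added after their values were seen.

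Replicate numbers occur in both groups. Deviations from group means correlated across genes at 0.397, 0.266 and 0.291 between same-numbered libraries, each over 0.1, and on this ground from the data alone the numbers were treated as pairing the samples. The unblocked fit is the main one, so the limma p-values ignore this pairing unless the block is named. The exact permutation p-values for CASP8 and the ratios ignore it too, as they exchange libraries freely between the groups. The unblocked fit called 12.1% of all tested genes, and the fit with the block called 26.6%. The limma code was tested on simulated data.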

Additional observations from a re-analysis of the deposited data

How the results depend on the processing

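Alternatives were median-of-ratios scaling, quantile normalization, a pseudocount of 0.1, a minimum mean of 5 FPKM, no filter, no mean trend, the replicate block, the column number range as a term, each library left out, and, chosen after seeing the data, the block with the range term. OGG1 and TDG kept direction and call in all 15, between -0.49 and -0.36 and between 0.54 and 0.68. XRCC1 kept its direction and lost its call in 8, among them no filter (limma adjusted p = 0.0586) and the block with the range term (adjusted p = 0.0656). The count of lower members was 1 in place of 2 without a filter, with the range term and with the block and range term, and 1 to 3 with 1 library left out (3 without shC8 1, when POLB passed, and 1 without any other). Of the other pathway genes, the replicate block called 4 higher (2 without it), the block with the range term called 1 lower (2 in the main fit), and fits without 1 library called 1 to 2 higher and 0 to 2 lower. Over all genes, the replicate block called 1862 higher and 1224 lower in place of 828 and 573, median-of-ratios scaling 621 and 820, quantile normalization 715 and 731, and fits without 1 library called 261 to 699 higher and 216 to 647 lower. The block changed no call of the 10 genes. The called share of the tested members thus stayed at 22.2%, while that of all tested genes went from 12.1% to 26.6%. Changes near 0 turned sign for UNG (-0.01 with median-of-ratios scaling, -0.02 without shC8 1 and up to 0.10 in such fits) and for MUTYH (-0.04 with quantile normalization, -0.03 with median-of-ratios scaling, -0.03 without shCTR 3, -0.07 without shC8 1, with 0.06 as its highest value in such fits), and the cause was not tested. Absolute depth is unknown.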

Other observations

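Several genes that process DNA ends or act beside the 10 genes did not pass the test and differed in both directions. They were picked after their values were seen, and the intervals of NUDT1, DUT and SMUG1 include 0. Of the 38 other pathway genes, 14 had an unadjusted limma p under 0.05, where 29.7% of all tested genes did. The values here are log2 differences, shC8 minus shCTR. On the higher side, the gap-filling polymerase gene POLL stood at 0.28 (95% interval 0.03 to 0.52, limma adjusted p = 0.134). On the lower side, PARP2 stood at -0.19 (-0.36 to -0.02, limma adjusted p = 0.135) and TDP1, which encodes an enzyme that frees DNA ends from trapped topoisomerase, at -0.22 (-0.42 to -0.02, adjusted p = 0.139). For enzymes that clean the nucleotide pool, NUDT1, which removes oxidised guanine nucleotides, stood at 0.14 (-0.14 to 0.43, limma adjusted p = 0.469) and DUT, which removes dUTP, at -0.09 (-0.31 to 0.13, adjusted p = 0.559). The uracil glycosylase gene SMUG1 stood at -0.11 (-0.26 to 0.04, limma adjusted p = 0.293), beside 0.04 for UNG.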
